A study of Mus musculus with 8 samples.

Results

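Trefoil factors and their mucus partner proteins were followed across mouse duct epithelium and duct organoids. The set held the 6 genes Tff1, Tff2, Tff3, Agr2, Agr3 and Fcgbp, taken by gene symbol from a table of 31228 genes. The members were picked with their levels in the epithelia and their direction from epithelium to organoid already known, so those levels and directions are given as description, without a test. The study set out to compare the expression profiles of extrahepatic bile duct and pancreatic duct, both as epithelium and as organoids, which are cultures of epithelial cells growing around a lumen in a gel matrix. All samples came from C57BL/6 mice, whose age and sex the labels do not give. There was 1 library of bile duct epithelium, 1 of pancreatic duct epithelium, 3 of bile duct organoids and 3 of pancreatic duct organoids, and no group was treated or carried an altered allele. The epithelia were dissected, minced and digested with collagenase IV and then lysed in Trizol, with no step that sorted epithelial cells from others. The organoids were grown in Matrigel with EGF, R-Spondin-1, Noggin, FGF10 and nicotinamide, with Wnt3A and Y27632 only until hollow organoids had formed, and were taken after 3 to 4 passages.

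Trefoil factors are small secreted peptides folded around disulfide bonds, and they leave mucous cells together with gel-forming mucins. They are known for protecting mucous surfaces and for helping epithelium to spread over a wound. Tff1 is typical of the surface mucous cells of the stomach, Tff2 of mucous neck cells and of the glands of the antrum and duodenum, and Tff3 of intestinal goblet cells. Agr2 is a protein disulfide isomerase of the endoplasmic reticulum that mucin production in the intestine requires, and Agr3 is its close relative. Fcgbp is a large secreted protein of goblet cell mucus that forms disulfide-linked complexes with Tff3.

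Levels are FPKM, read numbers per length of exon and per depth of library, scaled between the 8 libraries. The deposited values imply 12876470 to 20828217 reads or read pairs per library, and read numbers and intervals quoted here cover counting error only. Mitochondrial transcripts took 24.9% of all FPKM in the bile duct epithelium library, 18.8% in its pancreatic counterpart and 5.43% to 7.29% in organoids. All 10 duct epithelium markers, such as Krt19 and Epcam, were present in every library. The 14 acinar markers summed to 24029 FPKM in bile duct epithelium and to 49429 FPKM in pancreatic duct epithelium, against 2.30 to 8.55 FPKM in organoids. The 10 fibroblast markers summed to 3195 and 5175 FPKM in the same epithelia and to at most 2.96 FPKM in organoids. In such mixed tissue, fewer cells of a type and less RNA per cell cannot be told apart. No source says that the 3 cultures of a group came from separate mice, so p-values measure only the spread between these cultures, which may be technical.

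The 3 trefoil genes lie side by side on the minus strand of chromosome 17 and span 39.7 kb. In build GRCm38, Tff3 (ENSMUSG00000024029) occupies chr17:31125306-31129646, Tff2 (ENSMUSG00000024028) chr17:31141049-31144282 and Tff1 (ENSMUSG00000024032) chr17:31161396-31165053. On the plus strand of chromosome 12, Agr3 (ENSMUSG00000036231) occupies chr12:35925620-35949736, and 43.2 kb further on Agr2 (ENSMUSG00000020581) occupies chr12:35992907-36004087. Fcgbp (ENSMUSG00000047730) occupies chr7:28071236-28120862 on the plus strand. Each value was summed over the exons of the gene, and all 6 members gave whole read numbers in all 8 libraries. Tff1 overlaps the antisense transcript Gm15318, and without stranded counting the reads of the pair cannot be told apart.

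RefSeq promoters of build GRCm38.p6 were matched for 3 of the 6 members. The 250 bases before the start site are shown because Agr2 and Fcgbp had similar changes across the libraries while Agr3, next to Agr2, was almost silent. Capitals mark a match to 1 of 6 short motifs. The Agr2 window is chr12:35992675-35992924, the Agr3 window chr12:35925371-35925620 and the Fcgbp window chr7:28070986-28071235, all on the plus strand and read 5′ to 3′.
Agr2: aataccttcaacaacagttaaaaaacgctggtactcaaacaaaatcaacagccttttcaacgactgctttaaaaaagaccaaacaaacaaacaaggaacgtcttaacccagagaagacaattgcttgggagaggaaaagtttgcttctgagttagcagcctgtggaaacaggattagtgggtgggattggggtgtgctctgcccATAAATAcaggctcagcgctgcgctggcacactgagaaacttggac
Agr3: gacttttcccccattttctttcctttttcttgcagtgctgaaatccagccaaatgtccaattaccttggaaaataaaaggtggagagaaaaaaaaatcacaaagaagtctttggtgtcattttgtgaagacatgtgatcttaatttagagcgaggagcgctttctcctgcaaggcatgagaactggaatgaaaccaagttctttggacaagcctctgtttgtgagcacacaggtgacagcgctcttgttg
Fcgbp: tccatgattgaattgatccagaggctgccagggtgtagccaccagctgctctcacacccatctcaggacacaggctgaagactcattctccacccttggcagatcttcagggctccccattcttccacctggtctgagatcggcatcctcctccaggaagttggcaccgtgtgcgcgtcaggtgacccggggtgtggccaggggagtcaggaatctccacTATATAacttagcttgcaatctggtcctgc
The Fcgbp window held TATATA at positions -30 to -25 from the start site, and the Agr2 window held ATAAATA at positions -46 to -40, both on the strand of the gene. Positions count from the RefSeq start site. For Agr2 that site lies downstream of the deposited gene start at 35992907, so its window runs into the deposited gene. These 2 forms occurred in 5.25% and 5.17% of 32851 RefSeq promoter windows of the same length, searched on both strands, and they were added after the windows had been read. The motifs searched first had no match in the 3 windows. They were TATAAA (in 12.4% of promoters), the forkhead motif TGTTTAC (3.17%), the GATA motif AGATAA (9.99%) and the HNF1 motif GTTAAT (6.43%), where TATAAA and TATATA can overlap. Bases made up 56.4% G or C in the Fcgbp window, 44.4% in that of Agr2 and 41.6% in that of Agr3.

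Tff2 was among the most abundant messages of bile duct epithelium and nearly vanished in culture. It stood at 1576 FPKM in bile duct epithelium, the 28th highest gene of that library, and at 288 FPKM in pancreatic duct epithelium, the 146th. Bile duct organoids 1, 2 and 3 had 2.11, 4.72 and 3.00 FPKM, from 22, 59 and 35 reads. Pancreatic duct organoids 1, 2 and 3 had 9.66, 14.0 and 7.98 FPKM, from 90, 147 and 106 reads. Every organoid was far below both epithelia, and each pancreatic duct organoid was above each bile duct organoid.

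Tff3, the goblet cell trefoil factor, was abundant in bile duct but not in pancreatic duct epithelium, and in every organoid it was the highest of the 3 trefoil factors. Its level was 1229.7 FPKM in the first of these, the 38th highest gene there, and 6.15 FPKM, from 40 reads, in the second. The bile duct cultures, in the order 1, 2 and 3, had 44.9, 139 and 60.7 FPKM. Pancreatic duct organoids 1, 2 and 3 had 108, 28.9 and 27.3 FPKM. The organoids of both organs thus lay between the epithelia, and their ranges overlapped.

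Tff1, the gastric surface trefoil factor, was close to the limit of detection throughout. The epithelium of bile duct had 1.87 FPKM, from 10 reads, and that of pancreatic duct 0.635 FPKM, from 4 reads. In the bile duct cultures the values were 0, 0.781 and 0.524 FPKM, and in the pancreatic duct cultures 0.393, 0 and 0.460 FPKM, each in the order 1, 2 and 3. The antisense Gm15318 had 2.78 FPKM in bile duct epithelium and at most 1.19 FPKM elsewhere. No library had more than 10 reads of Tff1, so its differences rest on few molecules.

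**Figure D1:**
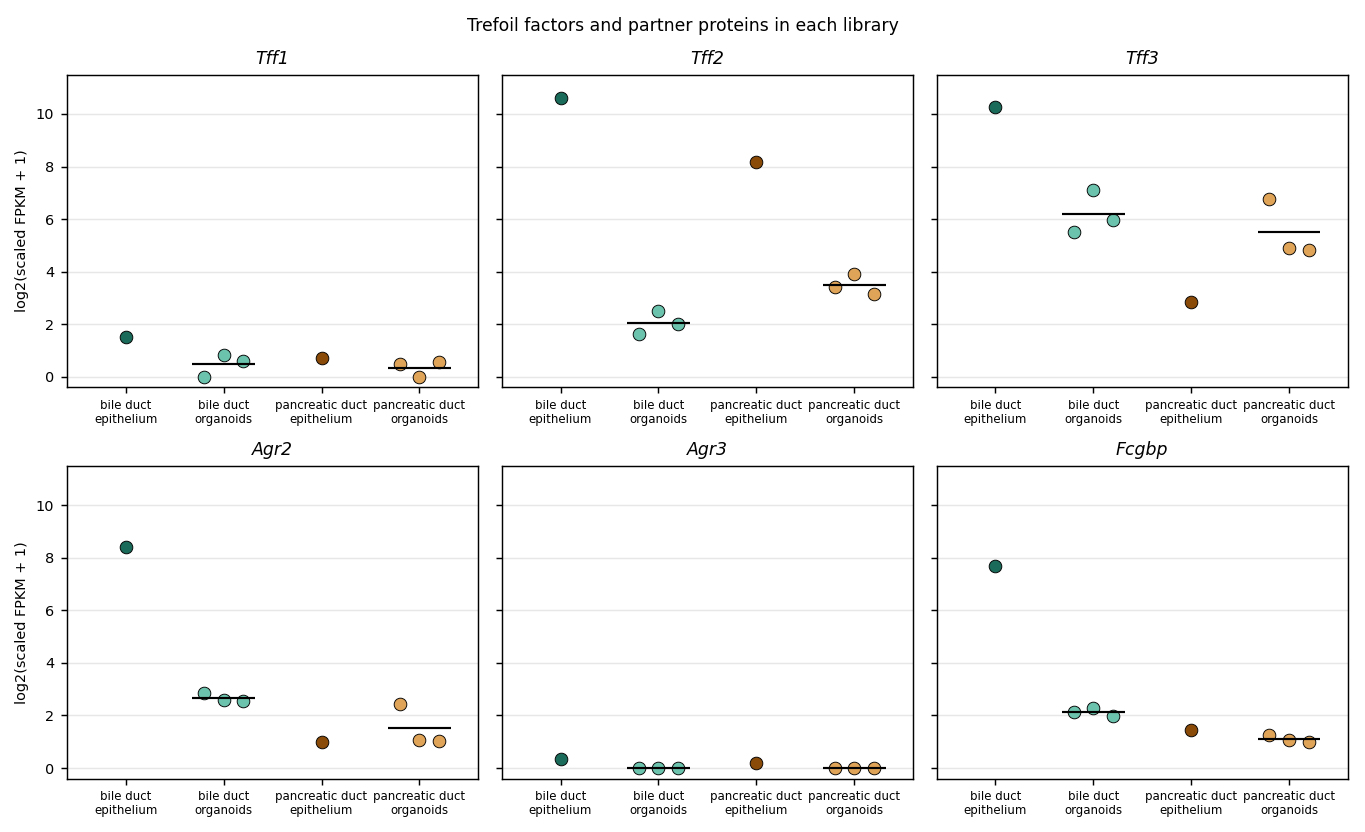
Each point is 1 library, with the level as log2(scaled FPKM + 1) on the vertical axis and the group on the horizontal axis, and black lines mark the mean of 3 organoids. Tff2 goes from 1576 FPKM to at most 4.72 FPKM in the bile duct panel, while pancreatic duct Tff3 sits higher in all 3 organoids than in the epithelium at 6.15 FPKM.

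Within the summed FPKM of the 3 trefoil factors, bile duct epithelium held 56.1% Tff2 and 43.8% Tff3, and pancreatic duct epithelium 97.7% Tff2 and 2.09% Tff3. Bile duct organoids 1, 2 and 3 held 95.5%, 96.2% and 94.5% Tff3. Pancreatic duct organoids 1, 2 and 3 held 91.5%, 67.4% and 76.4% Tff3. Tff2 thus made up most of the trefoil message in both epithelia, and Tff3 most of it in all 6 organoids. Over 3 cultures per organ, the log2 ratio of Tff2 to Tff3 averaged -4.54 ± 0.29 (SD) for bile duct and -2.10 ± 1.25 (SD) for pancreatic duct, with no overlap. The summed level was 2808 FPKM in epithelium of bile duct and 295 FPKM in that of pancreatic duct. In organoids it was 85.1 ± 51.7 FPKM for bile duct and 65.5 ± 45.4 FPKM for pancreatic duct (SD, n = 3). The means were 55.6 FPKM without bile duct organoid 2 and 39.3 FPKM without pancreatic duct organoid 1, the highest of each group.

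**Figure D2:**
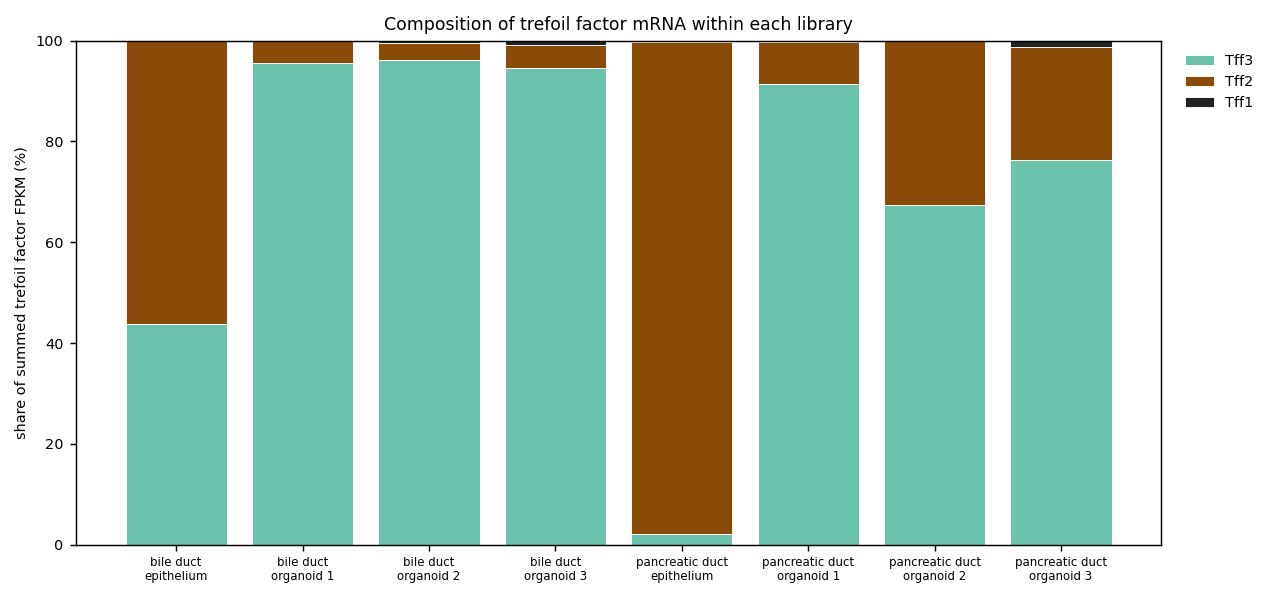
Each bar is 1 library, divided into the shares of Tff3, Tff2 and Tff1 in summed trefoil factor FPKM, in percent. Tff2 fills 97.7% of the bar of pancreatic duct epithelium, and Tff3 fills 67.4% to 96.2% of the organoid bars.

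Agr2, the disulfide isomerase partner, stood at 339 FPKM, from 4907 reads, in epithelium of the bile duct and at 0.999 FPKM, from 17 reads, in that of the pancreatic duct (exact Poisson 95% interval 0.582 to 1.60 FPKM). In cultures 1, 2 and 3 it was 6.24, 5.06 and 4.93 FPKM for bile duct and 4.42, 1.08 and 1.06 FPKM for pancreatic duct. Pancreatic duct organoids 2 and 3 were inside the counting interval of their epithelium, and organoid 1 was above it. Its relative Agr3 had 0.275 FPKM in bile duct and 0.156 FPKM in pancreatic duct epithelium, from 3 and 2 reads, and no read in any organoid, so no fold is given.

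Fcgbp, the mucus protein that binds Tff3, stood at 205 FPKM, from 24083 reads, in bile duct epithelium. Pancreatic duct epithelium had 1.72 FPKM, from 238 reads. Cultures 1, 2 and 3 had 3.34, 3.92 and 2.97 FPKM for bile duct and 1.36, 1.07 and 0.979 FPKM for pancreatic duct. The lowest bile duct organoid was above the highest pancreatic duct organoid. The next gene downstream, 9530053A07Rik, which the deposited annotation calls Fcgbp-like, was looked up after its values were seen. It had 0.248 FPKM in bile duct epithelium and 0.603 to 1.38 FPKM in organoids, and reads shared between the pair were not examined.

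Between the epithelia, Tff3, Agr2 and Fcgbp were each more than 100-fold higher in bile duct, and Tff2 about 5-fold. Tff3 was 199.8-fold higher in bile duct than in pancreatic duct epithelium (exact 95% counting interval 147 to 279.9). The ratio was 339-fold for Agr2 (212 to 583), 118.9-fold for Fcgbp (104.7 to 136) and 5.47-fold for Tff2 (5.23 to 5.73). Tff1 was 2.94-fold higher, with an interval of 0.848 to 12.8 that includes equality. On the log2(FPKM + 1) scale, 4 of the 5 members at 1 FPKM or more were at least 2-fold higher in bile duct, where 9.00% of 15536 genes were (4.69% were higher in pancreatic duct and 13.7% differed either way), and nothing is read from this because the members were picked on this contrast. With 1 library each, the counting interval does not cover the difference between animals or dissections.

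Markers of the duct itself and of gut epithelium were mostly higher in bile duct epithelium, and acinar markers were not. Of 10 duct markers, 9 were at least 2-fold higher in the bile duct library, with a median log2 difference of 1.81 against -0.04 for all genes, and Epcam differed by 2.40. Of 19 enterocyte markers at 1 FPKM or more, 18 were higher in bile duct epithelium. The list summed to 961 FPKM there, 94.9 FPKM in pancreatic duct epithelium and 82.7 to 157 FPKM in organoids. Vil1, at 50.0 to 102 FPKM, made up most of the sum in each organoid. Cdx2 was higher in every organoid than in the epithelium of its organ, while Sis, Apoa4 and Treh were at 0 in every organoid. Of 17 Paneth and goblet markers, 14 were higher, with sums of 2067, 781 and 35.7 to 102 FPKM. Lyz1, Ang4 and Retnlb were among 8 genes at 0 in every organoid, and Spink4 and Mmp7 made up most of the sum in each organoid. Zg16, a goblet cell lectin, made up 745 FPKM of the sum in pancreatic duct epithelium and 512 FPKM of that in bile duct epithelium, and without it the sums were 1555 and 35.9 FPKM. Of 8 gastric markers, 7 were higher, with sums of 1191, 32.7 and 116 to 186 FPKM, where Ctse and Aqp5 made up most of the sum in each organoid. Of 13 acinar markers, 0 were higher in bile duct and 4 were higher in pancreatic duct epithelium, with a median log2 difference of -0.90. Of 7 hepatocyte markers, 5 were higher in the bile duct library and 2 in the other, with sums of 308 and 114 FPKM. Among 10 fibroblast and 8 leukocyte markers none was higher in bile duct epithelium, and 3 and 2 were higher in the pancreatic one. The part of these cells in the members' levels was not tested.

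Set against Epcam, a surface protein of epithelial cells, Tff2 was level between the epithelia. Its FPKM was 6.31 times that of Epcam in bile duct epithelium and 6.19 times that of Epcam in the pancreatic one. The log2(FPKM + 1) difference of Tff2 less that of Epcam was 0.05. Less the median difference of the 10 duct markers, Tff2 stood at 0.63, below 2-fold. Tff3, Agr2 and Fcgbp stayed higher in bile duct epithelium, at 5.03, 5.01 and 3.84 on the log2 scale after the difference of Epcam was taken off. Tff1 turned to -1.59 on that measure, with 10 and 4 reads.

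**Figure D3:**
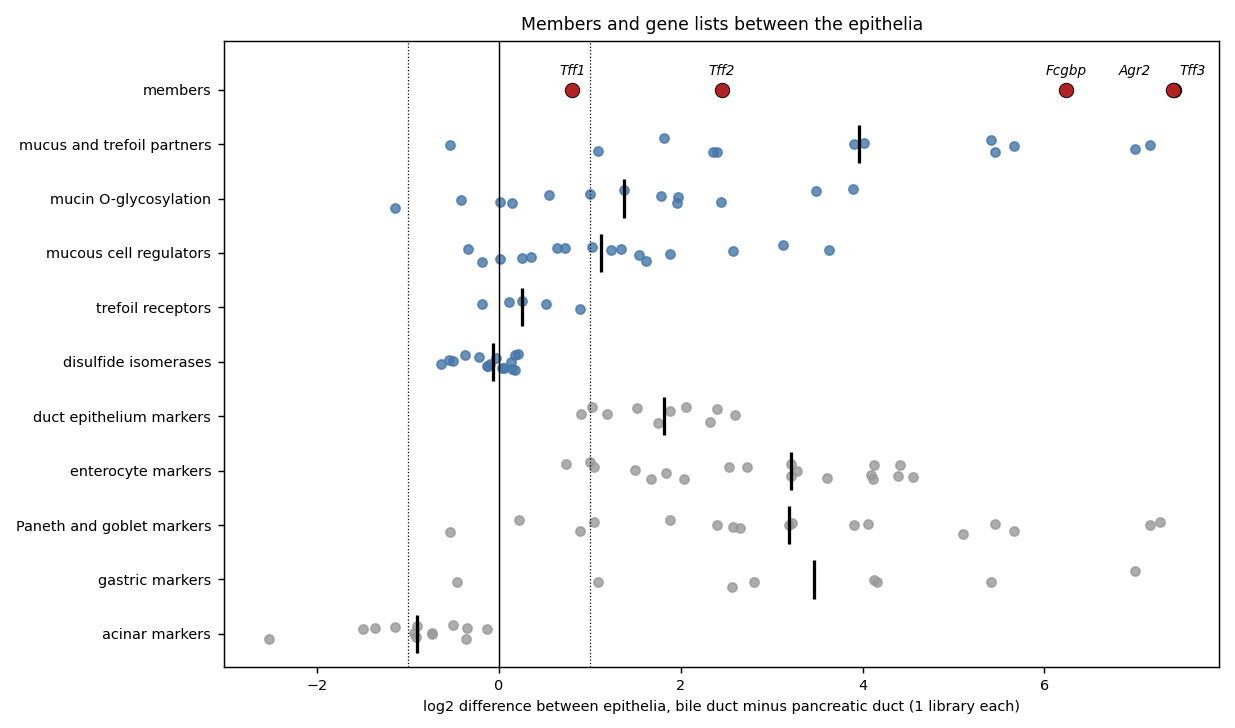
Each point is 1 gene at 1 FPKM or more in either epithelium, placed by its log2 difference between bile duct and pancreatic duct epithelium, with 1 row per gene list, black bars at list medians and dotted lines at 2-fold. Tff3, Agr2 and Fcgbp lie at 7.43, 7.41 and 6.24, and 16 disulfide isomerases stay within 2-fold, where 13.7% of all genes lie outside it.

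In bile duct, each member at 1 FPKM or more was lower in every organoid than in the epithelium. On the log2(FPKM + 1) scale, which understates low genes, the change was -8.57 ± 0.44 for Tff2, -5.73 ± 0.16 for Agr2, -5.55 ± 0.16 for Fcgbp, -4.07 ± 0.83 for Tff3 and -1.04 ± 0.43 for Tff1 (SD over 3 organoids). In mean FPKM, Tff2 was 481-fold, Agr2 62.6-fold, Fcgbp 60.0-fold and Tff3 15.1-fold lower, the last being 23.3-fold without bile duct organoid 2. These 5 of 5 members stand beside 26.3% of 15422 genes that were at least 2-fold lower and 12.5% that were higher. Tff1 drops below 2-fold with unscaled FPKM, with scaling over all genes above 0 (-0.97), with a pseudocount of 5 and without bile duct organoid 1.

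In pancreatic duct, Tff2 was again lower and Tff3 was higher. The log2 change was -4.68 ± 0.38 for Tff2 and 2.66 ± 1.10 for Tff3 (SD over 3 organoids), which in mean FPKM is 27.3-fold lower and 8.88-fold higher. Without pancreatic duct organoid 1, the highest of the 3, Tff3 was 4.57-fold higher, with a log2 change of 2.02. The value was 0.51 ± 0.80 for Agr2 and -0.35 ± 0.13 for Fcgbp, both under 2-fold on this scale. In mean FPKM Agr2 was 2.19-fold higher, and 1.07-fold without pancreatic duct organoid 1. Of 4 members at 1 FPKM or more, 1 was lower, where 25.4% of 15207 genes were, and 1 was higher, where 15.0% were. Tff3 was 1 of 48 among 14419 genes (0.333%) at least 2-fold lower in organoids of bile duct and higher in those of pancreatic duct, and Tff2 was among the 20.2% lower in both. The 2 organs were set side by side without a test of the difference, and a single library per epithelium carries the direction in each.

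Duct markers were higher in the same organoids. Their median log2 change was 1.82, 1.02 and 1.09 in bile duct organoids 1, 2 and 3 and 3.40, 3.69 and 2.92 in pancreatic duct organoids 1, 2 and 3. Less that change, Tff3 in pancreatic duct became -0.68 ± 1.10, and less the change of Epcam it became -0.71 ± 1.39 (SD, n = 3 organoids). The mean thus changed sign but lay within its SD of 0. Organoid 1 stayed above 0, at 0.53 and 0.79 by the 2 measures, and organoids 2 and 3 went below it, at -1.63 and -0.93 by the duct markers and -1.96 and -0.96 by Epcam. The ratio of Tff3 to Epcam was 4.92 in the epithelium of bile duct and 0.132 in that of pancreatic duct, and organoids ranged from 0.0375 to 0.363, a range that holds the pancreatic duct epithelium. Agr2 in pancreatic duct became -2.82 and Fcgbp -3.69 less the duct marker change, both past 2-fold. As measured they had changed by 0.51 and -0.35, so the subtracted change sets most of these values. Agr3, with 2 reads in pancreatic duct epithelium and none in organoids, became -3.54 on the same measure. No fall of Agr2 or Fcgbp in pancreatic duct is read from this. In bile duct Tff2, Tff3, Agr2 and Fcgbp stayed lower, with Tff3 at -5.38 and Tff2 at -9.88.

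**Figure D4:**
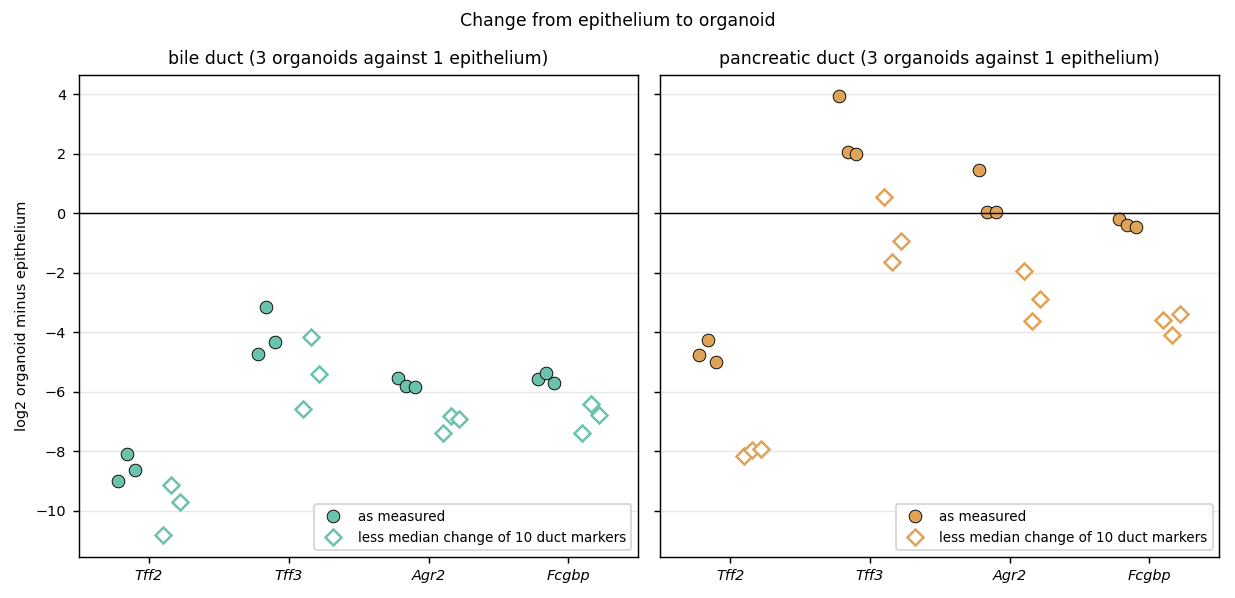
Filled points give the log2 change of each organoid from the epithelium of its organ, and open diamonds the same less the median change of 10 duct markers. Pancreatic duct Tff3 lies above 0 as measured and at a mean of -0.68 after the subtraction, with organoid 1 still above 0 at 0.53, whereas Tff2 is below 0 in all 6 organoids on both measures.

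Between the organoid groups, the only comparison with replicates on both sides, 4 of the 6 members passed the filter of 1 FPKM in at least 3 organoids, and Tff1 and Agr3 did not. Tff2 was 10.6 ± 3.13 FPKM in pancreatic duct and 3.28 ± 1.32 FPKM in bile duct organoids (SD, n = 3 each). Its log2 difference, bile duct minus pancreatic duct, was -1.45 (SE 0.29, 95% interval -2.14 to -0.76). Fcgbp was 3.41 ± 0.48 against 1.14 ± 0.20 FPKM, with a log2 difference of 1.07 (SE 0.15, 95% interval 0.70 to 1.43). Agr2 was 5.41 ± 0.72 against 2.18 ± 1.93 FPKM, with a log2 difference of 1.19 (SE 0.40, 95% interval 0.22 to 2.15). For Tff3, at 81.4 ± 50.1 against 54.6 ± 46.0 FPKM, the difference of 0.71 (SE 0.64, 95% interval -0.85 to 2.27) was smaller than the spread between cultures.

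None of the 4 passed limma's test with Benjamini-Hochberg adjustment over 12094 genes, each with an adjusted p of 1.00. The call rate over all genes was 0%, and 2.54% of genes had an unadjusted p under 0.05. Unadjusted limma p-values were 0.00207 for Tff2, 0.000331 for Fcgbp, 0.0234 for Agr2 and 0.310 for Tff3, and that of Agr2 exceeded 0.05 without bile duct organoid 1 (0.0638), pancreatic duct organoid 2 (0.0728) or pancreatic duct organoid 3 (0.0728), and it was 0.000116, with a log2 difference of 1.65, without pancreatic duct organoid 1. Without that same organoid, the log2 difference of Tff3 was 1.34, with an unadjusted p of 0.0388 in limma's fit across all genes. It ranged from 0.25, without bile duct organoid 2, to 1.05 when any other organoid was left out. Exact two-sided permutation tests over the 6 organoids gave 0.1 for Tff2, Agr2 and Fcgbp, the smallest value this design allows, and 0.5 for Tff3. The groups did not overlap for Tff2, Agr2 and Fcgbp, as for 6.76% of all genes tested, and all 3 were also at least 2-fold apart, as for 0.339% of genes. None of the 3 was 2-fold apart with a pseudocount of 5, at -0.92 for Tff2, 0.59 for Agr2 and 0.47 for Fcgbp. Agr2 also came under 2-fold without pancreatic duct organoid 2 (0.96) or 3 (0.95), and Fcgbp without bile duct organoid 2 (0.98). Across the 6 organoids the log2 range was 2.31 for Tff3, 2.28 for Tff2, 1.85 for Agr2 and 1.34 for Fcgbp, against a median of 0.56 over all genes tested.

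The wider mucus pathway was read from gene lists, against all-gene medians of -0.04 between epithelia and -0.09 from epithelium to organoid in each organ. The shares of all genes at least 2-fold apart, against which each list is read, were 9.00% higher in bile duct epithelium, 12.5% higher and 26.3% lower in bile duct organoids, and 15.0% higher and 25.4% lower in pancreatic duct organoids. Of the mucus partner list, which shares 5 genes with the Paneth and goblet markers and 5 with the gastric markers, 11 of 12 were at least 2-fold higher in bile duct epithelium and 12 of 12 were lower in the organoids of that duct, where the median log2 change was -6.04. Muc6, the gland mucin that accompanies Tff2, was 218 FPKM in bile duct epithelium, 0.721 FPKM in its pancreatic counterpart and at most 0.391 FPKM in organoids. Gkn3, a gastrokine, stood at 797 and 17.7 FPKM in the epithelia and at 0 in 5 of 6 organoids. In pancreatic duct, 6 of 7 measured partners were lower in organoids, against 25.4% of all genes, with a median of -1.35.

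Of 13 O-glycosylation genes, 8 were at least 2-fold higher in bile duct epithelium, against 9.00% of all genes. Their median log2 difference was 1.38, beside 1.81 for the 10 duct markers. In bile duct organoids 2 of 13 were higher, near the share of 12.5%, and 2 were lower. In pancreatic duct organoids 5 of 11 were higher, Galnt3, Galnt7, Galnt12, Gcnt3 and Fut2, against 15.0% of all genes, and 1, Gcnt1, was lower. The median log2 change of the 11 was 0.41, beside 3.45 for the duct markers in the same organoids. Gcnt3, which builds branched mucin O-glycans, was 21.3 FPKM in bile duct epithelium and 33.7, 79.7 and 58.2 FPKM in its organoids. Of 16 regulators of mucous cells, 5 were higher in organoids of both organs, among them Foxa2, a forkhead factor of endodermal epithelium, at 8.95 FPKM in bile duct epithelium, 2.43 FPKM in the pancreatic one and 27.6 to 32.2 FPKM in organoids. Spdef, a goblet cell transcription factor, was lower in both, at 11.9 and 1.18 FPKM in the epithelia and at most 0.550 FPKM in organoids. In bile duct organoids 8 of 16 regulators were lower, against 26.3% of all genes, and in pancreatic duct organoids 2 of 13, against 25.4%.

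Between the epithelia, none of 5 proposed trefoil receptors was 2-fold apart, where 13.7% of all genes were. Cxcr4, Ackr3 and Cd74 were lower in organoids of both organs, and Egfr and F2rl1 were higher. Cd74, the invariant chain of antigen-presenting cells, stood at 751 and 404 FPKM in the epithelia and at most 0.474 FPKM in organoids. Of 16 disulfide isomerases, relatives of Agr2, none was 2-fold apart between the epithelia, beside the same 13.7% of all genes. In organoids, Pdia5 and Erp27 were at least 2-fold lower in both organs and Tmx3 and Tmx4 in pancreatic duct, that is 2 of 16 and 4 of 16, beside 26.3% and 25.4% of all genes. Erp27 went from 5.53 and 8.52 FPKM in the epithelia to 0 in all 6 organoids. The median change of the list was 0.10 in bile duct and -0.06 in pancreatic duct. P4hb, the main isomerase, ranged from 248 to 371 FPKM over all libraries. In the organoid comparison limma called no gene of these lists.

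The genes with profiles most like each member were found among 13336 protein-coding genes, by the root mean square difference of mean-centred log2 profiles over the 8 libraries, with the members themselves left out. Between members, Agr2 lay 0.49 from Fcgbp, nearer than any gene outside the members lay to Agr2, Tff3 lay 0.98 from Agr2, and the barely detected Tff1 and Agr3 lay 0.37 apart. Outside the members, Fcgbp was nearest to the membrane mucin Muc3 (0.47) and to Olfm4 (0.47), a marker of intestinal crypt cells, and Agr2 to Olfm4 (0.80) and Gpa33 (0.81). Tff3 was nearest to Sptssb (0.85) and Phgr1 (0.91). Tff2 was nearest to the antigen presentation genes H2-Ab1 (0.70) and H2-Aa (0.71). Tff1 was nearest to Galm (0.13) and Agr3 to Flywch1 (0.04), and at the low levels of Tff1 and Agr3 the log2(FPKM + 1) scale leaves little range to match.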

How the data were processed

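Polyadenylated RNA of 8 samples was sequenced after NEBNext Ultra library preparation, per the labels' protocols. The submitters' processing notes name Bowtie2 2.2.3, HISAT2 2.1.0, TopHat2 and HTSeq 0.6.0, and the genome build and strand setting are not given in the sources used here. The authors deposited 1 table of FPKM values, and 0 value columns were left aside. Coordinates match GRCm38. FPKM times the merged exon length of GENCODE M21, clipped to the deposited gene span, gave whole reads within 0.05 for 28887 genes (92.5%) in all libraries.

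FPKM was scaled by a trimmed mean of log ratios (30% and 5% trimmed) over genes at 1 FPKM or more in at least 1 library, across 8 libraries, or across 6 organoids for their own test. The exon clipping and the subtraction of duct markers or Epcam were chosen after values had been seen. So was the gene set for scaling: 3 gene sets, each with every library as reference, were compared, and the one closest to earlier values reported from these data was kept. Trimming over all genes above 0 was run first and gave 1156 FPKM for Tff3 in bile duct epithelium, against 1229.7 FPKM as reported. The members and lists were chosen with earlier results of these data known. Named genes are the members, the listed genes and the genes with the most similar profiles. Tests used limma with trend on log2(FPKM + 1), with a threshold of 0.05 after Benjamini-Hochberg adjustment, tried first on simulated data. Contrasts with 1 epithelium have no test, and called means 2-fold, with all 3 organoids on 1 side. Replicate numbers came from the titles. Computation used R 4.3.3, limma 3.58.1, Python 3.11.15, pandas 2.3.3, numpy 2.4.6, scipy 1.17.1 and matplotlib 3.10.9.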

Additional observations from a re-analysis of the deposited data

Results flagged for a closer look

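Flagged here are 5 genes in which every bile duct organoid lay below its epithelium and every pancreatic duct organoid above its own. All members were searched this way, and other listed genes only where they were at least 2-fold apart in both organs. In these directions 48 of 14419 genes (0.333%) were at least 2-fold apart in both organs, a share that does not cover Agr2. Listed genes outside the members with the same directions but under 2-fold in pancreatic duct, such as Apob and Creb3l4, were left out. For none of the 5 was the difference between organs tested, because each epithelium is 1 library. The change in bile duct minus that in pancreatic duct, on the log2 scale, was -6.73 for Tff3 and -6.25 for Agr2, the latter under 2-fold in pancreatic duct, where organoids 2 and 3 were within counting error of the epithelium. Less the median change of the 10 duct markers, the pancreatic duct means became -0.68 for Tff3 and -2.82 for Agr2, most of the latter being the subtracted change.

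The other 3 were marker genes. The difference was -6.31 for Spink4, a goblet cell product, -5.64 for Anxa10, a gastric annexin, and -4.38 for Mmp7, the matrilysin of Paneth cells. Their mean change in pancreatic duct was 2.15 ± 0.51, 2.24 ± 1.32 and 1.36 ± 1.18 (SD over 3 organoids), beside 2.92 to 3.69 for the duct markers in the same organoids. Anxa10 had 1 read in pancreatic duct epithelium, and 12.5 FPKM in organoid 2 against 1.29 and 2.78 FPKM in organoids 1 and 3. Mmp7 in pancreatic duct organoid 1, at 1.64 FPKM, was near its epithelium at 1.49 FPKM, from 21 reads. Spink4 was 596 FPKM in bile duct and 12.6 FPKM in pancreatic duct epithelium, with 12.4 to 59.5 FPKM in bile duct organoids and 46.3 to 89.4 FPKM in pancreatic duct organoids.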

How the results depend on the processing

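Scaling, pseudocount, filter, test and left-out organoids were varied. Subtraction of epithelial markers and the comparison of scaling gene sets were added after seeing the data. Trimming over all genes above 0 was run first, and the gene set of the main results was chosen later. Under the first setting 4 of 5 members, not 5, were at least 2-fold lower in bile duct organoids. The number of members called stayed within 1.5 times in each comparison. Between the organoid groups it was 0 throughout, and over all genes limma called 0 to 11 when 1 organoid was left out, the 11 without pancreatic duct organoid 3.

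An equal count can hide different members. Less Epcam, 4 members were again past 2-fold between the epithelia, but Tff2 dropped out and Tff1 came in. Tff1 stood at -1.59, the opposite direction to Tff3, Agr2 and Fcgbp, from 10 and 4 reads. In pancreatic duct, 3 members were past 2-fold after either subtraction, Tff2, Agr2 and Fcgbp, without Tff3. For Agr2 and Fcgbp, at low levels there, the subtracted change sets most of the value. The mean of Tff3 there reversed from 2.66 to -0.68 ± 1.10 (duct markers) and -0.71 ± 1.39 (Epcam), within its SD of 0, and organoid 1 stayed positive (0.53 and 0.79). Scaling over all genes above 0, or over genes at 1 FPKM in 3 libraries, put Tff3 in bile duct epithelium at 1156 and 1341 FPKM.

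With the replicate block, limma called 0 members and 0 genes. Same-numbered organoids deviated with correlations of -0.10, -0.44 and 0.48, which cannot settle whether they shared a batch. Differently numbered pairs ranged from -0.60 to 0.65, the highest being bile duct organoid 1 with pancreatic duct organoid 2. Batches shared across the groups were not tested. Depth limits Tff1 and Agr3, at 10 reads or fewer.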
